A study of Rattus norvegicus with 16 samples.

Results

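The comparison described here set livers of adrenalectomized rats that breathed ozone (ADREX ozone, 4 libraries) against livers of sham-operated rats that breathed air (SHAM air, 4 libraries). It is the combined effect of both treatments, and the 8 libraries are part of a set of 16. The members were all genes whose deposited normalized count averaged at least 14.7 (rounded) over the 16 libraries, which 12791 of 22587 table rows reached. Fam171a2 lay just inside that limit at 14.694 (27.5 in ADREX ozone, 10.1 in SHAM air) and Ect2 just outside at 14.682 (15.2 in ADREX ozone, 11.01 in SHAM air).

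All rats were males of the strain labelled Wistar-Wyoto, 13 weeks old. ADREX ozone rats carried a Total Bilateral Adrenalectomy, the removal of both adrenal glands, and inhaled ozone at 0.8 ppm for 4 hours. SHAM air rats had a sham operation and breathed air for 4 hours. The other 8 libraries, 4 labelled ADREX air and 4 SHAM ozone by title, entered only the estimate of spread, the departure test and values set side by side. The treatment label gives ozone for the ADREX air libraries, against their titles. The labels give neither the interval between operation and exposure nor any hormone replacement. They do not say that each library came from a separate animal, so p-values measure only the spread between these samples, which may be technical.

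The adrenal cortex makes glucocorticoids, which act through a nuclear receptor in hepatocytes on glucose, amino acid and lipid metabolism, and the medulla releases adrenaline. Inhaled ozone is an oxidant that acts in the airways and is known to activate stress hormone release in rats. In the liver, insulin and sterol levels are read by the transcription factors of the SREBP family, which drive the genes of fatty acid and cholesterol synthesis. The liver clock, in which the proteins encoded by Clock, Npas2 and Arntl activate the Per and Cry genes and are repressed by their products, is one of the systems that circulating glucocorticoids entrain.

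Recovered reads ranged from 8372891 to 12740130 per library over these 8 libraries, with 15224 to 17439 genes having at least 1 read. A count of 0 allowed up to 3 reads, or 0.235 to 0.358 RPM (reads in 1000000), a limit that covers counting error only. Rank correlation across genes, which are not independent replicates, was 0.953 to 0.974 within ADREX ozone, 0.947 to 0.967 within SHAM air and 0.904 to 0.969 between the groups. The 10 hepatocyte markers, among them Alb and Hnf4a, were all tested. They summed to 103630 to 191999 RPM in ADREX ozone (median 126938) and 130176 to 187469 RPM in SHAM air (median 154782). By the limma test given below, 2 of the 10 were higher and 1 lower in ADREX ozone, against 13.7% and 8.85% of all genes tested.

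Transcripts of nervous tissue stood apart in these livers and moved with the groups. The 25 neuron and oligodendrocyte markers summed to 2014, 4871, 850 and 849 RPM in ADREX ozone 81 to 84, against 64.7, 44.4, 881 and 108 RPM in SHAM air 1 to 4. Libraries ADREX ozone 81 and 82 were the highest of the 8, and SHAM air 3 lay above ADREX ozone 83 and 84. Of 24 such markers tested, 23 were higher in ADREX ozone (median log2 change 4.16), none of the 25 was at 0 in every library, and 7 of 9 astrocyte markers were higher as well. These counts depended on the test. On recovered reads, 9 of the 24 passed as higher with edgeR and 14 with DESeq2. Of the 9 astrocyte markers, 4 passed as higher with edgeR and 8 with DESeq2. The hypothalamic neuropeptide genes Pmch and Trh had 70.5 to 285 and 23.0 to 121 normalized counts in ADREX ozone, against 0 to 75.0 and 0 to 22.5 in SHAM air. The test was therefore repeated in 2 further fits, 1 that adds the log2 neural marker sum, the neural score, as a covariate and 1 that drops ADREX ozone 81 and 82. Any call of a single gene given below that is not said to hold in both failed at least 1 of them. In the second fit none of the 24 neural markers passed the test, but their median log2 change was still 3.29, so that a neural difference remained. With the covariate that median was 0.22, which tells nothing new because the score is made of these same markers. In bulk tissue, fewer cells of a type and less RNA per cell cannot be told apart.

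**Figure D1:**
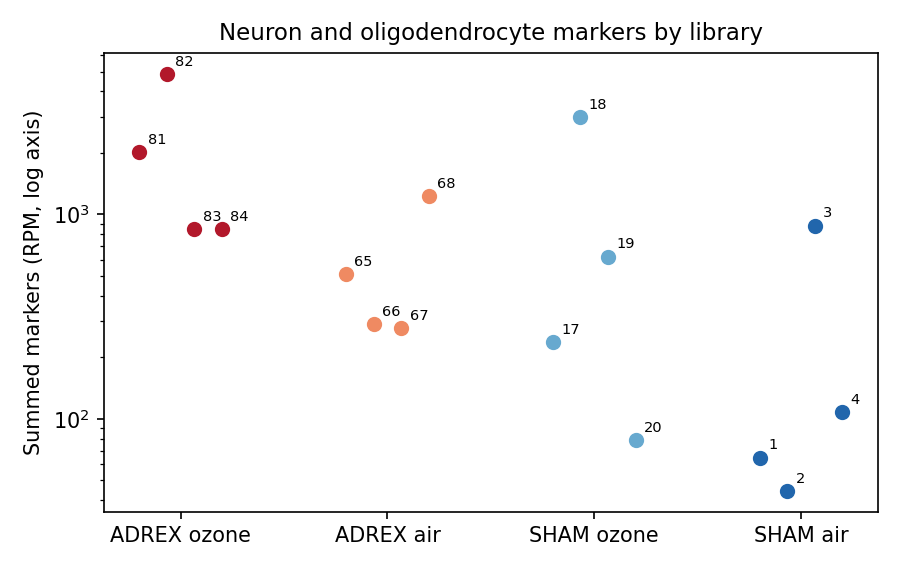
Summed level of 25 neuron and oligodendrocyte markers (RPM, log axis) in each of the 16 libraries, by group, with the library number beside each point. ADREX ozone libraries span 849 to 4871 RPM and SHAM air libraries 44.4 to 881 RPM.

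Across all genes, 2888 of 12791 (22.6%) passed limma at an adjusted p under 0.05, 1756 higher (13.7%) and 1132 lower (8.85%) in ADREX ozone. At least 2-fold changes numbered 1174 higher and 418 lower among them. The libraries of the 2 groups did not overlap for 2515 genes (19.7%), 1356 higher and 1159 lower. The share of higher calls, 60.8%, depended on the scaling, with 51.4% after TMM (1506 higher, 1423 lower) and 53.2% after median of ratios. It was 46.4% with edgeR (1225 higher, 1413 lower) and 52.1% with DESeq2 on recovered reads, which change the test as well. On the deposited scale a stricter filter on low genes gave 49.1%, and no filter beyond a mean above 0 gave 68.2%. The median log2 change over all genes was 0.11 on the deposited scale and 0.04 after TMM, and changes below are to be read relative to it.

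The count of calls moved when single libraries were left out and in the further fits. Dropping ADREX ozone 82 left 1439 calls, dropping SHAM air 4 left 1706 and dropping SHAM air 2 left 1718. Under the neural covariate 197 genes passed (1.54%, 72 higher and 125 lower), of which 166 were among the 2888. Without ADREX ozone 81 and 82 the count was 411 (3.21%, 120 higher and 291 lower), of which 395 were among them. That fit keeps only libraries 83 and 84 in ADREX ozone, which by itself lowers the power of the test. How far neural transcripts and lost libraries each lowered the count was not tested. Genes that passed all 3 fits numbered 134, 32 higher and 102 lower. Within groups, 1205 genes tested correlated with the neural score above 0.7, and 808 of the 1756 higher calls were such genes. Of the 1132 lower calls, 3 were. In the opposite direction, 133 genes tested correlated with the score below -0.7, of which 17 were lower calls and 2 higher calls. With ADREX ozone 83 and 84 set against SHAM air 3 alone, libraries of like neural sum, 5 genes passed, a fit in which the lone library is assumed to vary like the other groups. The part of the neural transcripts in the remaining calls was not tested.

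**Figure D2:**
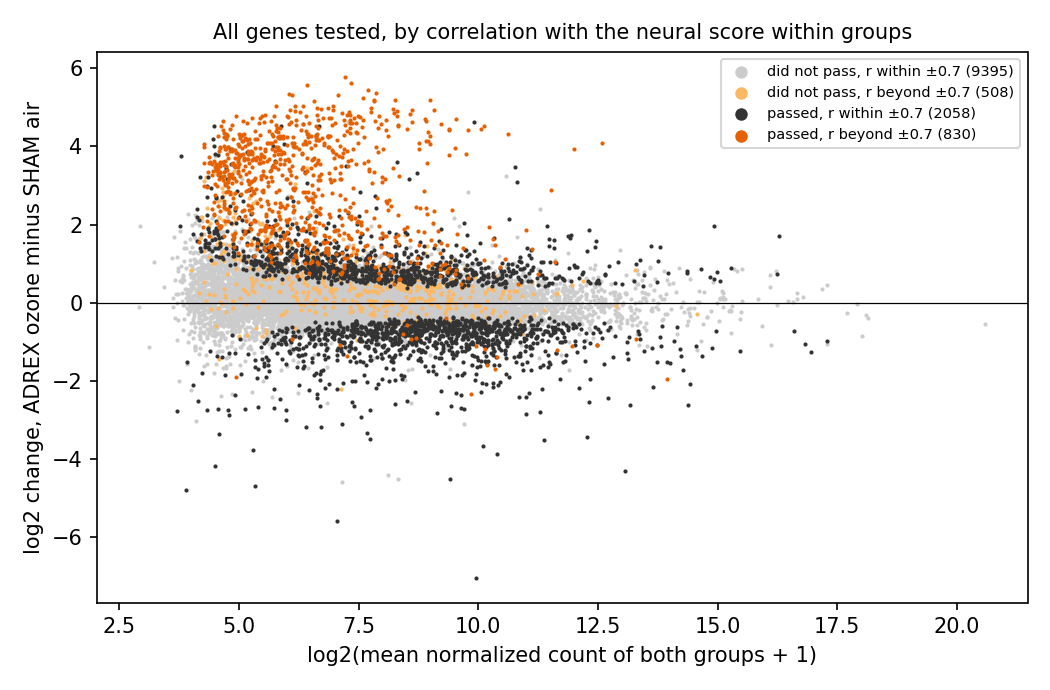
Log2 change (ADREX ozone minus SHAM air) of the 12791 genes tested against their mean level, log2(mean normalized count of both groups + 1). Genes whose correlation with the neural score within groups lay beyond ±0.7 are orange (830 passed the test) and form most of the cloud of large rises. The 2058 other genes that passed are dark.

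The sterol export pair Abcg5 and Abcg8 was higher, and most genes of cholesterol synthesis passed the test as lower in the full fit. Abcg5 and Abcg8, which encode the partner subunits of the transporter that secretes cholesterol into bile, were among the genes with the largest rise. Of 24 genes of bile acid handling and sterol export, 3 were higher and 5 lower (median log2 change -0.20). Of 24 genes of cholesterol synthesis and uptake, none was higher and 15 were lower (median -1.38), against the backgrounds of 13.7% and 8.85%.

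Abcg8 had 174, 371, 943 and 865 normalized counts in ADREX ozone 81 to 84, against 46.1, 37.2, 53.8 and 24.1 in SHAM air 1 to 4, and the groups did not overlap (log2 change 3.60 ± 0.47, SE, limma adjusted p = 0.000474). Abcg5 had 240.2, 598, 958 and 908 in ADREX ozone, against 71.4, 85.3, 72.5 and 40.1 in SHAM air, again without overlap (3.18 ± 0.41, limma adjusted p = 0.000474). In both genes ADREX ozone 81 was the lowest of its group and still lay above every SHAM air library. The calls held with the neural covariate (limma adjusted p = 0.0101 for Abcg8 and 0.0147 for Abcg5) and without ADREX ozone 81 and 82 (0.000144 and 0.000489). Between the libraries of like neural sum, Abcg8 still passed (4.05, limma adjusted p = 0.0491), and Abcg5 had a log2 change of 3.67 (adjusted p = 0.0594).

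Abcg5 and Abcg8 are transcribed in opposite directions from neighbouring starts, and the promoter is shown because both genes rose. The RefSeq windows of the GRCr8 assembly, 250 bases before to 50 after each start, share 295 bases. The Abcg5 window, chr6:15717686-15717985 on the plus strand, is printed with its CCAAT box, on either strand, in capitals.
Abcg5: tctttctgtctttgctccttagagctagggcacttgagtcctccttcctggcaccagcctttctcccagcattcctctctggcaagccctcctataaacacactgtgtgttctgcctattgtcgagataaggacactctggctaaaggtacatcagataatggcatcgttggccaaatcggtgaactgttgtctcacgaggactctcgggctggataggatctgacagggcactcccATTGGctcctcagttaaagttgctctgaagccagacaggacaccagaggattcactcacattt
No match to an E-box (CACGTG), a D-box (TTATGTAA) or a sterol element (TCACNCCAC) was found on either strand of this window.

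Of the 8 calls in bile handling and sterol export, Abcg5, Abcg8 and Slco1b2 held in both further fits. Slco1b2, a sinusoidal uptake carrier of bile acids and drugs, had 7129.6, 8605, 6881 and 10011 in ADREX ozone, against 18051, 23528, 21820.3 and 29340.4 in SHAM air (-1.502 ± 0.24, limma adjusted p = 0.00134). Abcc2, a canalicular export pump, fell to 6186, 3175, 6924 and 10878 in ADREX ozone, against 21844, 29699.5, 17589 and 29533 in SHAM air, and lost its call with the neural covariate (adjusted p = 0.0638). Abcb11, the bile salt export pump, had a log2 change of -1.11 ± 0.23 (limma adjusted p = 0.00604). Cyp46a1, a cholesterol hydroxylase best known from neurons, counted among the 3 rises, and its log2 change was 2.88 in the full fit and 1.04 with the neural covariate.

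The 15 lower cholesterol genes ran along the pathway. Hmgcs1, a synthase of the early steps, had 1671, 2012, 1973 and 2886 normalized counts in ADREX ozone, against 10489.9, 12620.4, 11321 and 10918 in SHAM air (-2.43 ± 0.45, limma adjusted p = 0.00358). Idi1, an isomerase of the isoprenoid steps, had 189, 245, 185 and 174 in ADREX ozone, against 668, 1116, 758 and 1447 in SHAM air. Sqle, which epoxidizes squalene, had 169, 145, 81.2 and 159.8 in ADREX ozone, against 604, 908, 400.0 and 801 in SHAM air. The libraries of the groups did not overlap in Hmgcs1, Idi1 or Sqle. Downstream, the log2 changes were -1.57 for Lss and -1.49 for Dhcr7. Srebf2, the SREBP gene of sterol synthesis, fell as well (-0.89 ± 0.22). None of the 15 calls held with the neural covariate, where the median of the 24 genes was -0.93, and 1 held without ADREX ozone 81 and 82, where the median was -1.18. All 24 genes had a negative log2 change in the full fit, the weakest at -0.08.

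The start windows of Hmgcs1 (chr2:53382054-53382353, plus strand) and Idi1 (chr17:66547475-66547774, minus strand) are shown because CCAAT boxes, bound by NF-Y, are a known feature of sterol gene promoters. CCAAT on either strand is in capitals, a motif chosen after the windows had been seen.
Hmgcs1: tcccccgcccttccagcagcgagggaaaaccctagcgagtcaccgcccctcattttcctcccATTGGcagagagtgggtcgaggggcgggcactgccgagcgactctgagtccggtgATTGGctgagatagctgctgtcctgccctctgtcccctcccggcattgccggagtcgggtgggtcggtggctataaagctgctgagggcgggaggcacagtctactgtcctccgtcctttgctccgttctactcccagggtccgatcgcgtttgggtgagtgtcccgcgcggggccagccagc
Idi1: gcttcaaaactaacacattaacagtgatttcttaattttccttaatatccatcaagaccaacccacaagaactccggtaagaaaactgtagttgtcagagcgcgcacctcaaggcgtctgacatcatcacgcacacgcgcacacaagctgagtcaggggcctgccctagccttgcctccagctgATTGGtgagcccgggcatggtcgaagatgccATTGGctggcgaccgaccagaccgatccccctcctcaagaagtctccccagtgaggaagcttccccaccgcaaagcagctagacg
Each window held 2 such boxes. Of the 15 lower genes 8 had a RefSeq window, and 7 of these held CCAAT, against 37.6% of the 9075 tested genes that had a window and 37.5% of all 33469 windows. Of 16 windows among the 24 genes of the list, 14 held it. A high share was not particular to this list. CCAAT was also in 9 of 12 windows of tested fatty acid synthesis genes and in 8 of 15 of tested clock genes. The sterol element (TCACNCCAC), the motif of SREBP named above, was in none of these 8 or 16 windows, Hmgcs1 and Idi1 included, against 1.07% of the windows of tested genes. At so low a share, its absence from so few windows says little. The match is a description of letters, not of bound sites.

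Genes of fatty acid synthesis were lower, and some of glucose use and of triglyceride storage were too. Of 17 fatty acid synthesis genes tested, 11 were lower and none higher (median log2 change -1.33), and 4 of the 11, Fasn, Acaca, Acly and Scd1, passed both further fits. Of 20 genes of glucose uptake and glycolysis, 5 were lower and 1 higher (median -0.39), and 2 calls held in each further fit. Among 22 genes of triglyceride synthesis and lipid droplets, 6 were lower and 1 higher (median -0.40), of which 1 held with the neural covariate and 2 without ADREX ozone 81 and 82.

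Fasn, the fatty acid synthase, had 478, 679.8, 251 and 312 normalized counts in ADREX ozone 81 to 84, against 4987, 6227, 2446 and 5849 in SHAM air 1 to 4 (log2 change -3.52 ± 0.43, limma adjusted p = 0.000401). Scd1, the stearoyl-CoA desaturase, had 523, 396, 1116 and 1338 in ADREX ozone, against 25642, 9143, 8805 and 22064 in SHAM air (-4.29 ± 0.64, limma adjusted p = 0.000998). The groups lay far apart in both genes, and SHAM air 3 was the lowest SHAM air library in each. The ADREX ozone change of Fasn was -3.44 ± 0.58 with the neural covariate and -3.12 between libraries of like neural sum. That of Scd1 was smaller in these fits, at -3.12 with the covariate and -2.85 between like libraries. Thrsp, an activator of lipogenesis, had 1189, 525, 434 and 1129.8 in ADREX ozone, against 9128, 13124, 3405 and 10352 in SHAM air (-3.44). Its log2 change was -2.38 with the neural covariate, where it did not pass (limma adjusted p = 0.108), and -2.28 between like libraries.

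The enzymes that supply these steps fell as well. Acaca, the acetyl-CoA carboxylase, averaged 368 ± 114 in ADREX ozone and 1764 ± 347 in SHAM air, and Acly, the citrate lyase, averaged 916 ± 235 in ADREX ozone and 4236 ± 1068 in SHAM air (SD, n = 4 each). The carbohydrate-responsive regulator gene Mlxipl fell by 0.70 on the log2 scale, while Srebf1, the SREBP gene of lipogenesis, had a log2 change of -0.36 ± 0.33 (limma adjusted p = 0.446). Of the glycolysis list, Gckr, the liver pyruvate kinase gene Pklr and Pfkfb1 fell too, with log2 changes of -2.10, -2.14 and -2.71, and passed neither further fit. Tkfc, a kinase of fructose breakdown (-2.02 ± 0.28), held in both further fits.

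Glycogen genes changed in both directions. Of 15 tested, 2 were higher and 6 lower (median -0.12). Gys2, the liver glycogen synthase, had 2686, 5216, 7100.2 and 2058 in ADREX ozone, against 1298, 1531, 1225 and 1529 in SHAM air (1.44 ± 0.35, limma adjusted p = 0.0097). Ppp1r3g, a glycogen-targeting phosphatase subunit, had 49.2, 28.3, 509 and 46.1 in ADREX ozone, against 5.95, 8.41, 6.25 and 6.02 in SHAM air, with ADREX ozone 83 far above the other 3. Other subunits of this phosphatase moved the other way. Ppp1r3b fell to 1109, 396, 306 and 807 in ADREX ozone, against 5771, 3656, 2081 and 5779 in SHAM air (-2.80 ± 0.45, limma adjusted p = 0.00145), and Ppp1r3c by 1.82 on the log2 scale. Gbe1, the branching enzyme, had 2867, 2540.1, 3495 and 3919 in ADREX ozone, against 8597, 8563, 11348 and 9495 in SHAM air (-1.58 ± 0.17, limma adjusted p = 0.000166), and the phosphorylase gene Pygl had a log2 change of -1.502. Of the calls in this list 3 held in both further fits, Ppp1r3b and Gbe1 among them. Gys2 passed neither (limma adjusted p = 0.135 with the neural covariate and 0.0723 without ADREX ozone 81 and 82), and Ppp1r3g did not pass with the covariate (0.0719).

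**Figure D3:**
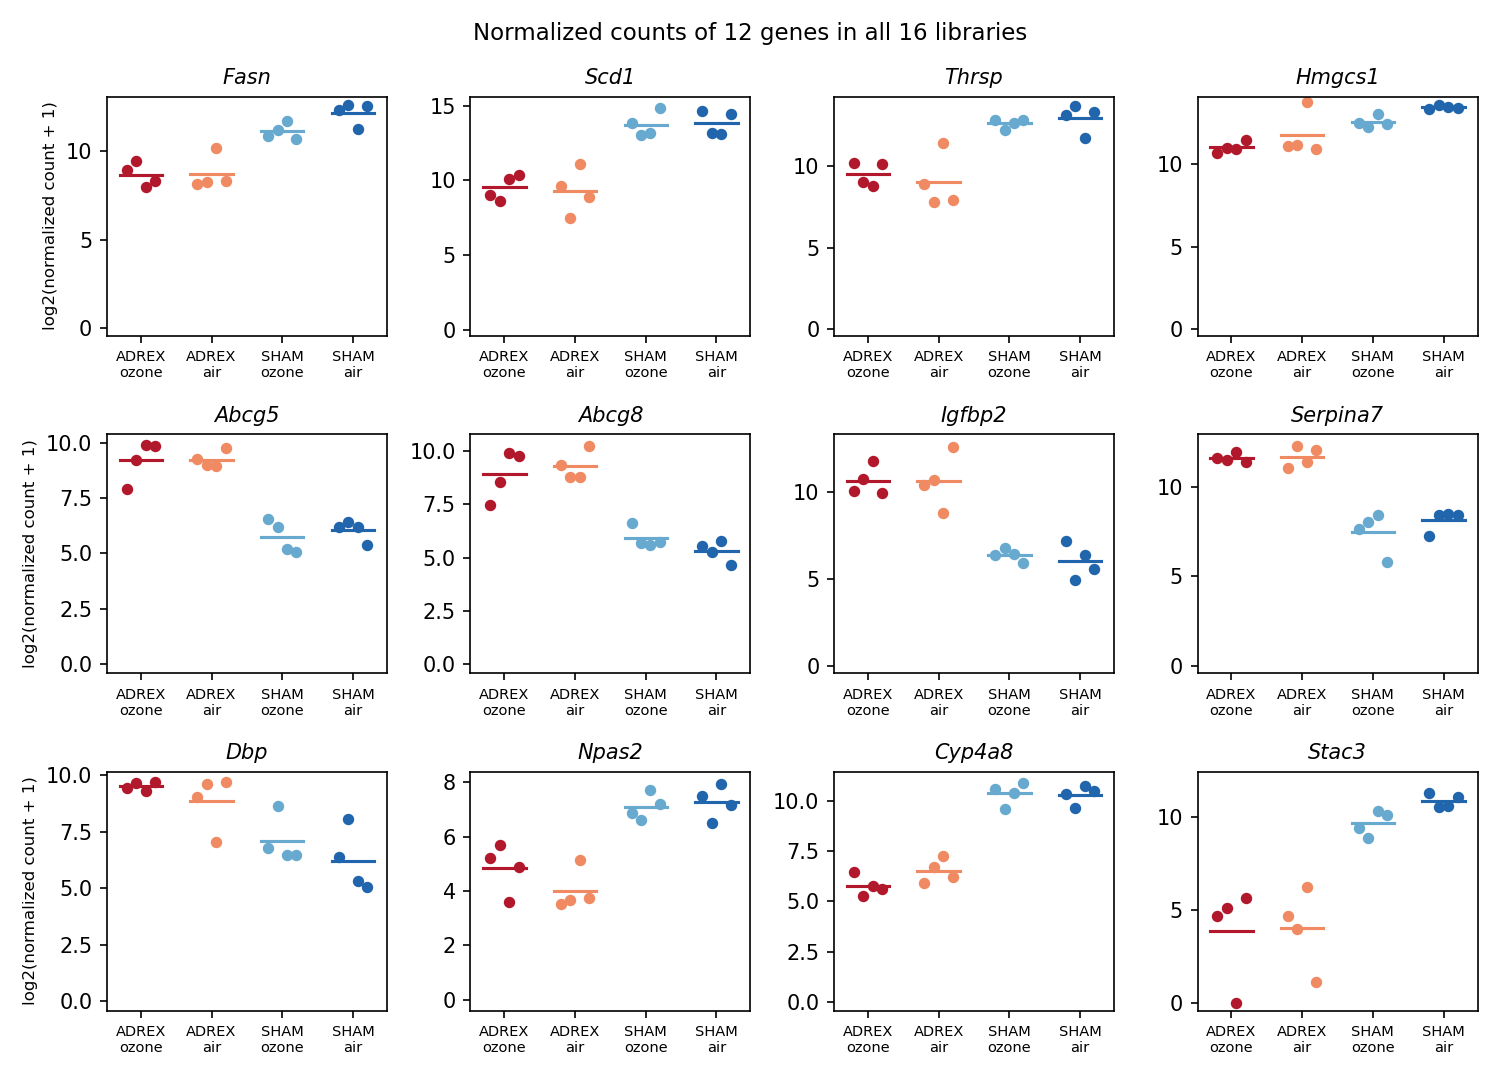
Normalized counts, as log2(value + 1), of 12 genes in all 16 libraries, ADREX ozone at the left and SHAM air at the right of each panel. Points are libraries and bars group means. Fasn, Scd1, Thrsp, Hmgcs1, Cyp4a8, Npas2 and Stac3 lie lower and Abcg5, Abcg8, Igfbp2, Serpina7 and Dbp higher in ADREX ozone than in SHAM air, with no overlap.

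Hormone carriers and growth factor genes held some of the largest rises. Igfbp2, which encodes a binding protein of insulin-like growth factors, had 1078, 1754, 3581 and 1005 normalized counts in ADREX ozone, against 143, 30.0, 83.8 and 46.2 in SHAM air (4.64 ± 0.63, limma adjusted p = 0.000581). Serpina7, thyroxine-binding globulin, had 3144, 2901, 3964 and 2655 in ADREX ozone, against 149, 338, 359 and 347 in SHAM air (3.47 ± 0.45, limma adjusted p = 0.000474). Serpina6, the corticosteroid-binding globulin, had 13823, 24686, 23869.9 and 11469 in ADREX ozone, against 7866, 5704, 8969 and 4198 in SHAM air (1.45 ± 0.28). In all 3 genes the lowest ADREX ozone library exceeded the highest SHAM air library, and Igfbp2 and Serpina7 also passed both further fits.

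The growth hormone and IGF list of 21 genes had 3 higher and 6 lower members (median -0.49). Igfbp3, the main carrier of IGF1 in plasma, had 229.9, 216, 216 and 318 in ADREX ozone, against 809.5, 782, 813 and 1019 in SHAM air (-1.81 ± 0.25, limma adjusted p = 0.000583) and held in both further fits, and Igf1 itself averaged 6969 ± 1208 in ADREX ozone and 13070.0 ± 1034 in SHAM air. The pair of P450 genes known in rats for sex-specific, growth hormone dependent expression moved apart. Cyp2c12, the female-predominant form, had 459.8, 205, 163 and 197 in ADREX ozone, against 28.3, 75.7, 45.0 and 50.2 in SHAM air, and the male-specific Cyp2c11 21018, 9676, 17673 and 30563 in ADREX ozone, against 38509, 43795, 40009 and 41105 in SHAM air. Neither passed with the neural covariate or without ADREX ozone 81 and 82. Reads of Cyp2c, Cyp4a, Akr1c, Mup and Sult genes may be split among near-identical paralogs, so their values are uncertain.

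Of 20 genes of steroid hormone metabolism, 4 were higher and 4 lower (median -0.26). Cyp17a1, a steroid hydroxylase and lyase, had 130.4, 416, 555 and 519.6 in ADREX ozone, against 52.1, 73.3, 32.5 and 60.2 in SHAM air (2.73 ± 0.59, limma adjusted p = 0.00676), and lost its call with the neural covariate (0.0622). Hsd11b2, which inactivates corticosterone, was low in both groups, with 0 to 14.4 in ADREX ozone, against 37.2 to 54.2 in SHAM air (-2.86 ± 0.67). Sult2a2, a hydroxysteroid sulfotransferase, fell to 2602, 7961, 3307 and 5751 in ADREX ozone, against 13424, 27321, 15546 and 26806 in SHAM air, and passed both further fits, as did Akr1c1, an aldo-keto reductase, with 121, 147, 149 and 305 in ADREX ozone, against 2423, 2121, 3081 and 2344 in SHAM air (-3.86 ± 0.42, limma adjusted p = 0.000173). Esr1, the estrogen receptor alpha gene, had 145, 84.8, 84.5 and 288 in ADREX ozone, against 689, 928, 838 and 1467 in SHAM air (-2.83 ± 0.40, limma adjusted p = 0.000773) and held in both. The list of 33 nuclear receptors and liver factors had 2 higher and 9 lower members (median -0.45). The liver factor gene Onecut1 was among the lower ones, with 19.4, 29.3, 19.7 and 24.5 in ADREX ozone, against 411, 54.1, 326 and 245 in SHAM air, where SHAM air 2 was the lowest, and it passed neither further fit (limma adjusted p = 0.0847 and 0.0693).

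The clock genes that passed the test went in opposite directions by their place in the loop. Of 22 tested, 7 were higher and 3 lower (median 0.48). The lower ones were the activators Npas2, Arntl and Clock. Npas2 had 36.6, 51.3, 10.97 and 28.8 normalized counts in ADREX ozone, against 180.1, 90.1, 248 and 142 in SHAM air (-2.43 ± 0.46, limma adjusted p = 0.00378), and Arntl and Clock had log2 changes of -1.70 and -0.997. The higher ones were repressors and output genes, together with Tspan4, a tetraspanin gene in the list that is no clock component. Dbp, a transcription factor driven by the clock, had 693, 803, 637 and 832 in ADREX ozone, against 83.3, 265, 38.8 and 32.1 in SHAM air (3.32 ± 0.65, limma adjusted p = 0.00472), and SHAM air 2 was the SHAM air library nearest to ADREX ozone. Per3 had 364, 418, 265 and 239 in ADREX ozone, against 52.1, 63.7, 56.3 and 18.1 in SHAM air (2.84 ± 0.60), and the log2 changes of Per2, Cry2, Tef and Wee1 were 2.05, 1.47, 1.35 and 2.03. Not every repressor gene passed, since Per1 had -0.07 ± 0.41 (limma adjusted p = 0.922) and Cry1 -0.11 ± 0.22 (0.759). Npas2 and Tspan4 held in both further fits, while Dbp had a limma adjusted p of 0.0842 with the neural covariate and 0.0499 without ADREX ozone 81 and 82. The labels give no time of day of tissue collection.

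The Dbp window (chr1:105312006-105312305, plus strand) is shown because Dbp had the largest clock change and is a textbook E-box target. CCAAT on either strand is in capitals.
Dbp: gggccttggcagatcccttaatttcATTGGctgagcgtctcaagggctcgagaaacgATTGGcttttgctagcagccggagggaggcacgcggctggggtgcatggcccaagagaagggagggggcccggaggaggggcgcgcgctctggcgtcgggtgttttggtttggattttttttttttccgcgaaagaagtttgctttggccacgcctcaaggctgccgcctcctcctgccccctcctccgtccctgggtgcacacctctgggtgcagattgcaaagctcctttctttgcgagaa
It held 2 CCAAT boxes and no CACGTG, a motif present in 9.26% of the windows of tested genes. The window covers the start only, and nothing follows about CLOCK from its letters.

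Genes known as glucocorticoid receptor targets did not move one way. Of 32 tested, 5 were higher and 6 lower, and the median log2 change was 0.00. Fkbp5, Tsc22d3, Tat and Pck1, induced by glucocorticoids in many tissues or in liver, had -0.48 ± 0.30, -0.26 ± 0.43, 0.26 ± 0.33 and -0.42 ± 0.29, none of which passed the test. Zbtb16 had 164, 36.7, 21.9 and 153 in ADREX ozone, against 158, 872, 274 and 754 in SHAM air (-2.59 ± 0.61, limma adjusted p = 0.00891), and ADREX ozone 81 lay above SHAM air 1. Dusp1, a phosphatase of MAP kinases, had 313, 465, 318 and 268 in ADREX ozone, against 1196, 1445, 3273 and 532 in SHAM air (-1.98 ± 0.44, limma adjusted p = 0.00762). Sgk1, a kinase, was on the higher side, with 801, 524, 609 and 225 in ADREX ozone, against 225, 84.1, 278 and 70.2 in SHAM air (1.81 ± 0.61, limma adjusted p = 0.0434). ADREX ozone 84 lay below SHAM air 3 in that gene, and its call ended after TMM (adjusted p = 0.0539), with edgeR (0.0838), with DESeq2 (0.0616) and in both further fits (0.32 and 0.288). No member of the list passed both further fits. Expression of the receptor gene Nr3c1 had a log2 change of -0.37 ± 0.21 (limma adjusted p = 0.229).

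Amino acid breakdown and the urea cycle also split, with 4 of 36 genes higher and 8 lower (median -0.17). Sds, serine dehydratase, had 2404, 3607, 5899 and 1104 in ADREX ozone, against 393, 209, 288 and 464 in SHAM air (3.08 ± 0.56, limma adjusted p = 0.00317). Asl, a urea cycle lyase, had 5729.7, 8939, 11358 and 7988 in ADREX ozone, against 2784, 2449, 2484 and 3514 in SHAM air (1.57 ± 0.24, limma adjusted p = 0.0013), and was the member that held in both further fits. Kynu of tryptophan breakdown fell to 1199.7, 989, 1485 and 3194 in ADREX ozone, against 6753, 5838, 7833 and 7693 in SHAM air, and Glud1, glutamate dehydrogenase, fell by 1.24 on the log2 scale. Of 18 gluconeogenesis genes, none was higher and 2, Pc and Foxo3, were lower (median -0.17).

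In fatty acid oxidation 10 of 30 genes were higher and 2 lower (median 0.32). Decr1, Ehhadh and Cyp4a1 rose by 0.98, 1.08 and 1.03 on the log2 scale. With the neural covariate none was higher and 1 lower, without ADREX ozone 81 and 82 1 was higher and 1 lower, and with edgeR on recovered reads 4 were higher and 2 lower. Cyp4a8, a fatty acid hydroxylase family member, was 1 of the 2 lower members, with 86.9, 37.7, 53.8 and 48.9 in ADREX ozone, against 1298, 786, 1669 and 1411 in SHAM air (-4.50 ± 0.33, limma adjusted p = 3.61e-06). It had the smallest adjusted p of the 30 genes named by rule and held in both further fits, and its change was -4.14 with the neural covariate, -4.57 without ADREX ozone 81 and 82 and -5.00 between libraries of like neural sum. Of 37 respiratory chain genes 1 was lower, Ndufs1 (-0.69 ± 0.23).

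Other named genes included the largest fall of all. Stac3, an adaptor known from the calcium channels of muscle, had 25.2, 33.5, 0 and 48.9 in ADREX ozone, against 2566, 1509.8, 1543 and 2181 in SHAM air (-7.03 ± 1.05, limma adjusted p = 0.00101). ADREX ozone 83 held 0 reads of it, so the fitted size depends on the pseudocount of 1. Loxl4, a lysyl oxidase, had 46.9, 39.8, 32.9 and 27.3 in ADREX ozone, against 341, 349.5, 380.0 and 417 in SHAM air (-3.33 ± 0.32, limma adjusted p = 7.82e-05). Arhgef19, an exchange factor of small GTPases, had 34.3, 28.3, 20.8 and 56.1 in ADREX ozone, against 323, 349.5, 608 and 291 in SHAM air, and Inhba, the activin A subunit, 43.5, 14.7, 4.39 and 40.3 in ADREX ozone, against 193, 168, 151 and 213 in SHAM air. All 4 genes passed both further fits. Dusp10, a phosphatase of stress kinases, rose to 111, 181, 154 and 38.9 in ADREX ozone, against 14.9, 10.8, 25.0 and 18.1 in SHAM air (2.60 ± 0.40, limma adjusted p = 0.00113), and held in both as well.

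The remaining named genes held in 1 further fit or in none. The adenylyl cyclase gene Adcy10 had a log2 change of 2.42 and the transcription factor gene Cux2 of 2.69. Tsku, Rtn4rl2, Olr59 and Zmiz2 fell, with log2 changes of -3.65, -3.19, -3.004 and -4.69. Zmiz2 had 8.75 normalized counts in SHAM air 3, near ADREX ozone, against 75.9 to 161 in SHAM air 1, 2 and 4. Camkv and Caskin1, genes best known from neurons, had within-group correlations with the neural score of 0.69 and 0.66, just inside the limit of 0.7. Their log2 changes were 4.06 and 3.62, and between libraries of like neural sum 0.20 and 0.86.

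**Figure D4:**
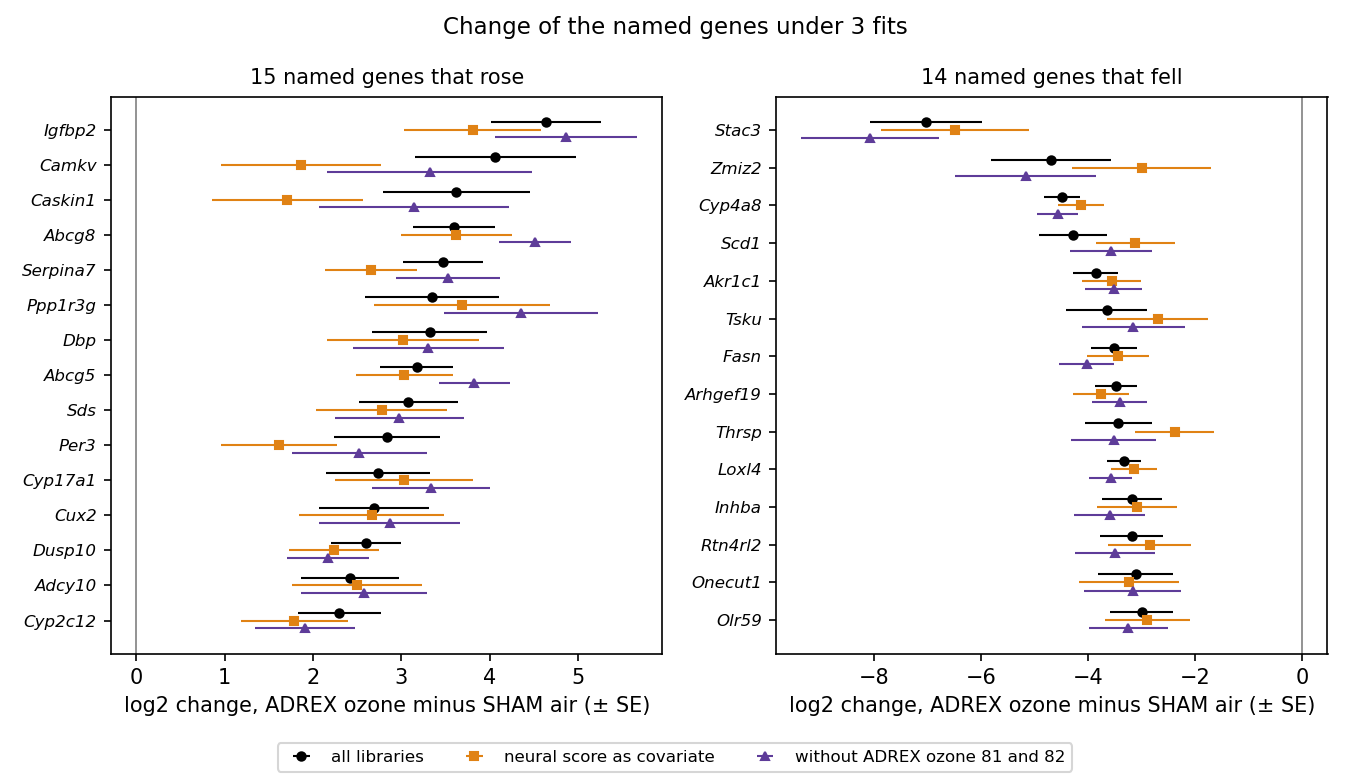
Log2 change (ADREX ozone minus SHAM air, ± SE) of the 15 genes with the largest rise and 14 of the 15 with the largest fall by the naming rule, in 3 fits: all libraries, the neural covariate added, and ADREX ozone 81 and 82 dropped. All genes shown keep their direction, which the lack of overlap required by the rule fixed in advance when ADREX ozone 81 and 82 were dropped. Camkv and Caskin1 shrink most among the rises with the covariate, to 1.87 and 1.71.

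Of the 30 named genes, 14 passed with the neural covariate, 5 higher and 9 lower, and 22 passed without ADREX ozone 81 and 82, 9 higher and 13 lower. Between the libraries of like neural sum, Abcg8 and Cyp4a8 passed. All 30 kept their direction in these 3 fits. Because the naming rule required libraries without overlap, this was fixed in advance in the fits that only left out libraries. None lost its call when any 1 of the 8 libraries was left out, which choosing the largest changes of these same data favours.

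Genes of protein synthesis and of chromatin moved by small amounts. Of 39 cytosolic ribosomal protein genes, 15 were higher and none lower (median log2 change 0.72), for example Rps6 (2123, 3183, 2850.2 and 1838 in ADREX ozone, against 1109, 1220.4, 1670.0 and 801 in SHAM air) and Rpl3 (1.01 ± 0.21). Their median was 0.94 with the neural covariate, where 6 passed, 4 of them among the 15. Without ADREX ozone 81 and 82 it was 0.80, and 3 passed. Of the 15 calls, 3 held in both further fits. Of 34 histone methyltransferase and demethylase genes, none was higher and 14 were lower (median -0.43), of which 1 held with the neural covariate and 4 without ADREX ozone 81 and 82. Kdm7a, a demethylase, had 104, 101, 84.5 and 80.6 in ADREX ozone, against 193, 179, 208 and 159 in SHAM air, and was the 1 that held in both further fits. Reads of ribosomal proteins can be shared with processed pseudogenes, so their levels are uncertain.

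Insulin signalling had 5 of 22 genes lower and none higher (median -0.42), of which 1 held with the neural covariate and 2 without ADREX ozone 81 and 82. Pik3r1, the regulatory subunit of phosphoinositide 3-kinase, had 479, 389, 342 and 465 in ADREX ozone, against 1616, 1069, 959 and 1210.0 in SHAM air (-1.52 ± 0.19, limma adjusted p = 0.000401) and held in both, and Insr, the insulin receptor, fell by 0.90. Lists of stress and immunity lay near the background. NF-kB and cytokine signalling had 3 of 22 higher (Il1b, Tlr2 and Il1rn, none of which passed with edgeR), interferon response 3 of 29 lower, NRF2 targets 3 of 25 higher and 2 lower, and the unfolded protein response 1 of 29 higher and 4 lower. Among 26 acute phase genes, Lbp rose (11936, 2971, 5127 and 3618 in ADREX ozone, against 1525, 1647, 1596 and 1445 in SHAM air) and Orm1 fell (10367, 3531, 679 and 1202 in ADREX ozone, against 18856, 12324, 12704 and 14359 in SHAM air). Orm1 did not pass with edgeR (adjusted p = 0.0578). ADREX ozone 81 was the highest of its group in both, as it was for Hpx and Kng1l1.

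**Figure D5:**
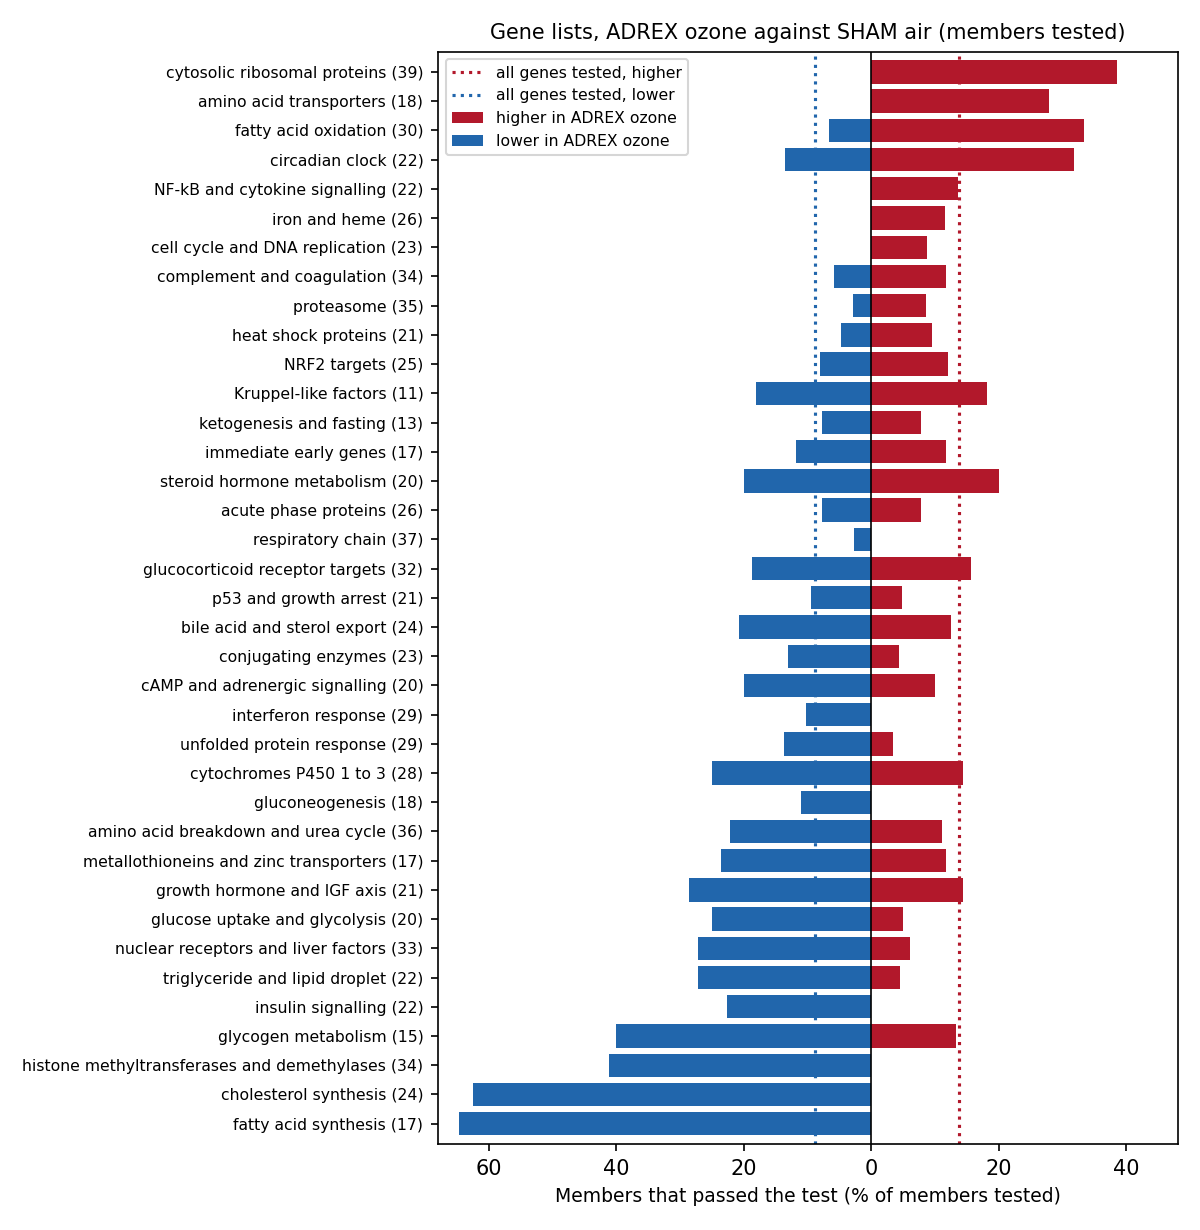
Share of the tested members of each of 37 gene lists that passed the test, higher in ADREX ozone to the right and lower to the left (% of members tested, numbers tested in brackets). Dotted lines give the same shares over all genes tested, 13.7% and 8.85%. Fatty acid and cholesterol synthesis reach furthest left and cytosolic ribosomal proteins furthest right.

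Markers of other liver cells were counted in the same way. Of 9 sinusoidal endothelial markers 3 were lower, Lyve1, Stab2 and Kdr, and the list summed to 294 to 465 RPM in ADREX ozone and 460 to 522 RPM in SHAM air. Of 11 stellate cell and fibroblast markers 2 were lower, Col3a1 and Lrat, with sums of 342 to 541 RPM in ADREX ozone and 595 to 648 RPM in SHAM air. Of 11 Kupffer cell markers 2 were higher, C1qa and Clec4f, and the call of Clec4f ended after TMM (adjusted p = 0.0695) and with edgeR (0.0706). The red cell gene Hbb had 2495, 2276, 155 and 74.8 normalized counts in ADREX ozone, against 2127, 1109, 1103 and 646 in SHAM air, and was lowest in ADREX ozone 83 and 84. Whether these cell types had a part in the other results was not tested.

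The combined change was then set beside the single treatments, all 3 against the same SHAM air libraries. For Abcg8 the log2 changes were 3.60 in ADREX ozone, 3.98 in ADREX air and 0.60 in SHAM ozone. For Fasn they were -3.52, -3.47 and -1.06, for Serpina7 3.47, 3.54 and -0.68, and for Npas2 -2.43, -3.27 and -0.18, in ADREX ozone, ADREX air and SHAM ozone. In these 4 genes the ADREX air value lay within 1 unit of the ADREX ozone value, and the SHAM ozone value was the nearest to 0. Sds differed, with 3.08 in ADREX ozone, 2.12 in ADREX air and 3.39 in SHAM ozone. Onecut1 had -3.11 in ADREX ozone, -1.65 in ADREX air and -2.53 in SHAM ozone. Zbtb20, a transcriptional repressor whose call held in both further fits, had -2.03 in ADREX ozone, -0.47 in ADREX air and 0.05 in SHAM ozone. Neither Zbtb20 nor any of the 30 named genes had a departure from the sum of the single changes that passed the test described next.

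The departure of the combined change from the sum of the single changes on the log2 scale was tested in the same fit. It passed for 14 genes (0.109%). Among list members it passed for Por, the P450 reductase, with 2707, 2006, 3075 and 2447 in ADREX ozone, against 1664, 1243, 935 and 805 in SHAM air, and means of 2567 in ADREX air and 5322 in SHAM ozone. The departure was -2.17 ± 0.39 (limma adjusted p = 0.04). Slc12a3, a kidney salt transporter gene from the kidney and lung markers, passed too, with a departure of -4.51 (limma adjusted p = 0.0193). The conflict between titles and treatment labels of the ADREX air libraries bears on this test and on the ADREX air values set beside the combined change above. In the comparison of ADREX ozone with SHAM air it bears on the estimate of spread. The count became 3 when ADREX ozone 83 or 84 was dropped, 6 when ADREX ozone 82 was and 29 when ADREX ozone 81 was. Dropping SHAM air 2, 3 or 4 gave 5, 33 and 8 calls.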

How the data were processed

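Liver mRNA was sequenced on a NextSeq 500 after library preparation with the Wafergen PrepX protocol, per the labels' protocols. The deposited table holds signal values, normalized counts for which the authors divided each library's reads by 1 size factor, with Partek, DESeq2 and the rat build rn6 named in the submitters' processing notes. Not given in the sources used here are versions, aligner, counter and annotation. Whole reads were recovered from the steps of each column: the share within 0.01 of a whole read was 100%. The table gives symbols without positions. Of these, 15865 matched a current rat symbol in RefSeq and 1160 a synonym only.

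Values were taken as log2(value + 1), which understates the change of low genes, and tested two-sided with limma-trend (limma 3.58.1, R 4.3.3) over 16 libraries as 4 group means, with Benjamini-Hochberg adjustment over 12791 genes. All adjusted p-values without another name are limma's. Genes needed a mean of at least 14.7, which is 1 count in 1000000 of the median column total. Count tests on recovered reads used edgeR 4.0.16 (quasi-likelihood) and DESeq2 1.42.0 as alternatives. Only the comparison of ADREX ozone with SHAM air, by limma, edgeR and DESeq2, was tested on simulated counts.

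Named genes passed the test without overlap of libraries, reached 73.4 (5 in 1000000) in the higher group, had a real symbol, no all-or-none pattern and a within-group correlation with the neural score within ±0.7. The 15 largest rises and 15 largest falls were taken, and of each list up to 4 members a direction. Srebf1, Srebf2, Lss, Dhcr7, Acaca, Acly, Mlxipl, Tkfc, Igf1, Cry1, Cry2, Tef, Tspan4, Per1, Fkbp5, Tsc22d3, Tat, Pck1 and Nr3c1 were named beyond that rule, with their values known. Some genes of the lists and of the rule are not reported here. The members, the 37 pathway and 17 cell type lists and the tests were chosen with earlier results of these data known. The neural score is log2 of the summed RPM of 25 markers plus 1. Alternatives were other pseudocounts, filters, scalings, weights, thresholds and libraries left out, and 1 set of libraries of like neural sum, chosen after seeing the data. Promoter windows came from RefSeq (assembly GRCr8), whose coordinates do not apply to rn6.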

Additional observations from a re-analysis of the deposited data

Results flagged for a closer look

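Among 426 sets of 4 libraries of 1 group, 21 held a library far from the other 3 by Dixon's test, which chance alone does for about 1 in 20 sets. In ADREX ozone, library 81 was the far one for Hpx (162987 normalized counts), Kng1l1 (279471) and Klf15 (572). Library 82 was the far one for Acot1 (123), F10 (4761), Hsd17b6 (12.6), Klf12 (142) and Slc12a3 (57.6). Library 83 stood apart for Stac3, with 0, and library 84 for Igfbp3 (318).

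In SHAM air, library 1 stood apart for Serpina7 (149) and library 2 for Ppp1r3g (8.41). Library 3, the one with the high neural sum, stood apart for Gadd45b (3.75), Ppp1r3c (986), Vimp (253) and Thra (344). Library 4 was the far one for Per3 (18.1), Igfbp3 (1019), Prkar2a (2532), Il1rn (973) and Ncf1 (96.3).

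The effect of ozone differed between ADREX and SHAM rats by the test of that difference for 2 genes of the lists. For Por, the P450 reductase, the ozone effect in ADREX minus that in SHAM was -2.17 on the log2 scale (limma adjusted p = 0.0400). For Slc12a3, a kidney salt transporter that was low in ADREX ozone and in SHAM air, it was -4.51 (limma adjusted p = 0.0193). Both values use the ADREX air libraries, whose treatment label goes against their titles.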

How the results depend on the processing

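No paired analysis was possible because the replicate numbers of the groups differ. The number of genes that passed, 2888, fell to 197 with the neural score as a covariate, 411 without ADREX ozone 81 and 82, 1898 without the genes that correlate with that score, 5 for ADREX ozone 83 and 84 against SHAM air 3, 910 at an adjusted p under 0.01 and 1592 at an absolute log2 change of at least 1. Leaving out 1 library gave 1439 to 3515. The departure from the sum of the single effects passed for 14 genes, and for 182 with array quality weights, 24 with edgeR, 248 with DESeq2, 22 with the neural covariate, 3 at an adjusted p under 0.01 and 1 for the libraries of like neural sum. Leaving out 1 library gave 3 to 33. Stricter thresholds can only lower a count, and leaving out the genes that correlate with the score removed 830 of the 2888 calls outright. The cause of the other shifts was not tested.

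Direction turned in 6 cases, none of them among the 30 genes of the rule. Chosen for libraries without overlap, those 30 could not turn in a fit that only left out libraries. Between the libraries of like neural sum the log2 changes of Grb10, Mt3, Thra, Nefl and Gjb6 were -0.34, -0.0623, -0.26, -0.0696 and -0.4998, and with the neural covariate that of Gfap was -0.18. Of the 30 genes, all kept their calls with edgeR, DESeq2, TMM and median of ratios. Under the stricter filter 23 of them were tested and kept theirs. In simulated data DESeq2 made more false calls than limma or edgeR. The neural score differs between the groups, so its covariate shares information with the comparison and widens standard errors. With 4 libraries a group, small changes of low genes were not detectable at this depth.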

Other observations

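Some of the gene lists not described above are given here by their counts, to be read against 13.7% higher and 8.85% lower over all genes. Of 35 proteasome genes 3 were higher and 1 lower, of 26 iron and heme genes 3 were higher, and of 23 cell cycle genes Pcna and Aurkb were higher. Among 34 complement and coagulation genes 4 were higher and 2 lower, and 1 of the 34 passed, as higher, in each further fit. Among 28 cytochromes P450 and their partners 4 were higher and 7 lower, the lower ones above that background. None of these 28 passed with the neural covariate or without ADREX ozone 81 and 82. Of 17 metallothionein and zinc transporter genes 2 were higher and 4 lower, of which none passed with the covariate and 2 without these libraries. Of 11 Kruppel-like factor genes 2 were higher and 2 lower, and of 20 genes of cAMP and adrenergic signalling 2 were higher and 4 lower. None of either list passed with the covariate, and 1 of the second list passed without ADREX ozone 81 and 82. In ketogenesis and fasting, Vnn1 was the 1 higher and Slc16a1 the 1 lower of 13.

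Of 18 amino acid transporter genes 5 were higher, and 4 of the 18 correlated with the neural score beyond 0.7 within groups. None of the 5 passed in either further fit. Markers of tissues other than liver and brain stayed low: the adrenal gland list summed to 3.69 to 22.02 RPM in ADREX ozone and 0.629 to 3.81 RPM in SHAM air, and Chga, its 1 tested member, is also a neuronal gene. The pancreas list summed to 40.7 to 112 RPM in ADREX ozone and 18.3 to 45.7 RPM in SHAM air, with Cela1 higher.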
